A study of Sus scrofa with 9 samples.

Results

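Of 13662 genes tested in cultured porcine aortic valve interstitial cells (PVICs), 42 were at 2 CPM or more (counts scaled to a library total of 1e6) in all 6 libraries without basic fibroblast growth factor (bFGF) and below 1 CPM in all 3 libraries with it. PVICs are the fibroblast-like cells that build and maintain the leaflet matrix. They were isolated from wild-type pigs aged 4 to 5 months and kept for 3 days in DMEM (NC), in osteogenic induction medium (OIM, with 2 mmol/L phosphate, 50 µg/mL ascorbic acid and insulin), or in OIM to which bFGF was added at 50 ng/mL (BFGF), with 3 RNA-seq libraries per group. Every bFGF culture also received OIM, so bFGF without OIM was not measured. The cells were primary cultures, and the labels do not say whether the 3 libraries of a group came from separate animals, so p-values measure the spread between these libraries, which may be technical. Gene counts summed to between 46773376 and 67371523 per library, and CPM were scaled by the trimmed mean of M-values (TMM).

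FGF binds receptor tyrosine kinases at the cell surface and activates the Ras-ERK cascade, which induces its own feedback inhibitors and is known to oppose smooth muscle gene programmes. TGF-beta signalling, by contrast, is known to turn fibroblasts and valve interstitial cells into contractile, matrix-producing myofibroblasts. Osteogenic media with phosphate are used to model the mineral deposition of calcific valve disease.

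The 42 genes were chosen by their bFGF values, so those values are given as a description without a test. They averaged from 2.47 to 55.4 CPM over the NC and OIM libraries (median 4.65) and from 0.0385 to 0.906 CPM with bFGF. The remaining level was between 0.844% and 29.2% of that average (median 12.2%), which is a fall of 3.43-fold to 118-fold. All 42 were called lower in BFGF than in OIM, meaning an adjusted p no higher than 0.05 with a log2 fold change of 0.5 or beyond, where 18.4% of all genes tested were called lower, but the rule itself fixed this count. In bulk RNA, fewer cells that express a gene and less RNA per cell cannot be told apart.

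The working name of the set, genes switched off by bFGF, went further than the counts. At these depths 1 CPM was 52.0 to 53.6 counts in a bFGF library. No member was at 3 counts or fewer in every bFGF library, and ACTA1 was the single member at 10 or fewer in each. Instead, 37 of the 42 had at least 10 counts in every bFGF library. The set is therefore described as genes below 1 CPM under bFGF.

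**Figure D1:**
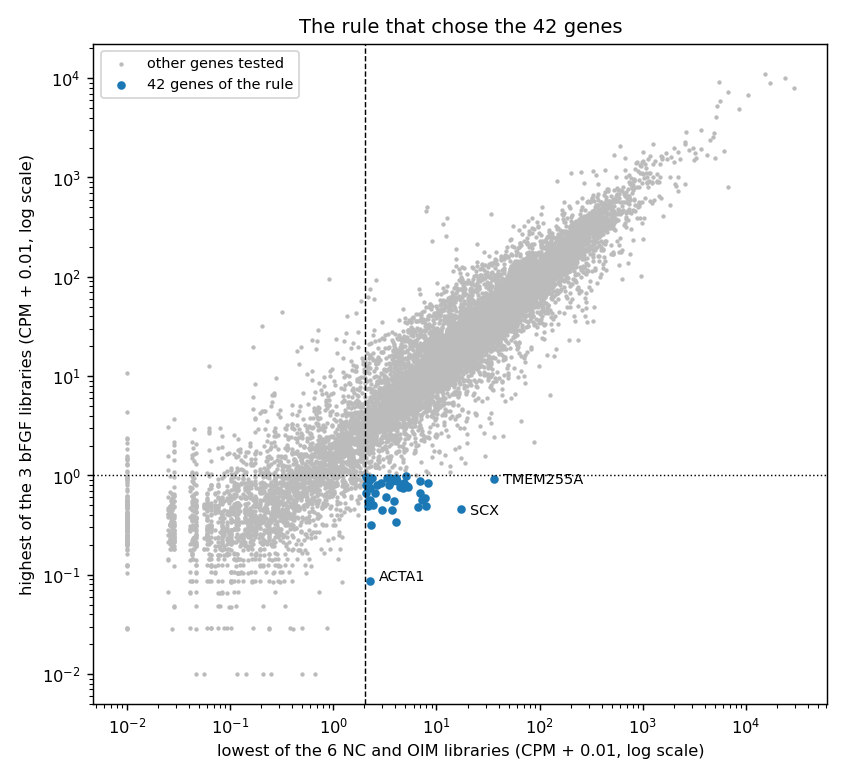
Each point is 1 of 13662 genes tested, with its lowest value among the 6 NC and OIM libraries on the x axis and its highest value among the 3 bFGF libraries on the y axis (CPM + 0.01, both on log scales). Dashed and dotted lines mark 2 and 1 CPM, and the 42 genes in blue fill the corner that the rule cuts out, with ACTA1 lowest and TMEM255A farthest to the right.

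The limits were set in CPM and favoured genes of low abundance. Just inside the bFGF limit, the highest bFGF library was at 0.970 CPM for PPP4R4 and 0.961 CPM for SYBU. Just outside it were GABRP at 1.0 CPM and PODN at 1.04 CPM. At the other limit, the lowest NC or OIM library was at 2.06 CPM for MAPK4, inside, and at 1.98 CPM for MPP7, outside. Among genes at 2 CPM or more in all 6 NC and OIM libraries, 68 had a fall at least as large as the median fall of the members (8.21-fold), and 47 of these had a bFGF library at 1 CPM or more and were no members. ACTA2, smooth muscle alpha-actin, was the most abundant of those 47, with means of 6787 CPM in NC, 8449 CPM in OIM and 738 CPM in BFGF.

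Per kilobase of merged exon, SCX was the most abundant member over NC and OIM (13.2 CPM per kb), followed by HSPB7 (11.05 CPM per kb) and TMEM255A (9.43 CPM per kb), and MAPK4 was the least abundant (0.164 CPM per kb). The members' CPM summed to 290 to 302 in the NC libraries, 243 to 309 in the OIM libraries and 22.2 to 24.2 in the bFGF libraries. TMEM255A made up a large part of the NC sum: without it the sums were 221 to 231 in NC and 207 to 264 in OIM.

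Nuclear regulators were 5 of the 42. SCX, which encodes scleraxis, a basic helix-loop-helix factor known for tendon and valve matrix gene expression, was at 19.17, 19.997 and 20.54 CPM in NC, 26.3, 17.4 and 23.9 CPM in OIM, and 0.448, 0.288 and 0.366 CPM with bFGF. All 6 libraries without bFGF were far above the others, and 1.73% of the level remained. ZBTB16, the transcriptional repressor PLZF, was at 6.37, 6.10 and 5.37 CPM in NC, 7.05, 5.28 and 6.06 CPM in OIM, and 0.448, 0.750 and 0.616 CPM with bFGF. EYA1, a coactivator with phosphatase activity, averaged 2.65 ± 0.435 CPM in NC, 2.58 ± 0.217 in OIM and 0.566 ± 0.170 with bFGF (mean ± SD, n = 3 in each group). FOSB, a subunit of the AP-1 factor, averaged 2.52 ± 0.141 CPM in NC, 2.42 ± 0.254 in OIM and 0.411 ± 0.119 with bFGF (SD, n = 3). HCFC1R1, which binds the host cell factor HCF-1, kept 18.4% of its level. NC and OIM libraries overlapped for all 5.

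Contractile and cytoskeletal proteins were 3 of the 42. ACTA1, skeletal muscle alpha-actin, was at 2.94, 2.24 and 2.80 CPM in NC and at 8.34, 2.43 and 8.60 CPM in OIM. With bFGF it was at 0, 0.0769 and 0.0385 CPM, from 6 counts in the 3 libraries together. The exact 95% Poisson interval of those counts, which covers counting error only, places the fall between 55.0-fold and 326-fold. HSPB7, a small heat shock protein of heart and muscle, was at 7.69, 6.85 and 7.85 CPM in NC, 23.7, 16.3 and 22.7 CPM in OIM, and 0.280, 0.788 and 0.866 CPM with bFGF. The 3 groups of HSPB7 did not overlap, with OIM highest. SNTB1, the dystrophin-associated protein beta-1-syntrophin, kept 15.7% of its level.

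Secreted proteins and surface ligands were 9 of the 42, with 4.01% to 17.8% of their level left. TNFRSF11B encodes osteoprotegerin, the soluble decoy receptor that holds back bone resorption by binding RANKL. It was at 6.05, 5.89 and 6.36 CPM in NC, 8.56, 5.2 and 8.07 CPM in OIM, and 0.578, 0.769 and 0.269 CPM with bFGF. GDF10, a secreted ligand of the TGF-beta superfamily also called BMP3B, was at 8.49, 9.24 and 7.75 CPM in NC, 10.6, 9.18 and 12.2 CPM in OIM, and 0.559, 0.577 and 0.173 CPM with bFGF. PENK, the precursor of the enkephalin opioid peptides, kept 4.01%, the lowest share among the 9. FGL2, a fibrinogen-like protein with prothrombinase activity, was at 15.6, 12.5 and 13.9 CPM in NC, 9.57, 6.95 and 10.3 CPM in OIM, and 0.466, 0.538 and 0.654 CPM with bFGF. CXCL14, a chemokine, was at 8.81, 11.3 and 8.71 CPM in NC, 5.46, 6.94 and 4.71 CPM in OIM, and 0.186, 0.173 and 0.731 CPM with bFGF. For FGL2 and CXCL14 every OIM library lay between the NC and the bFGF libraries. TNFSF18, the ligand of the T cell receptor GITR, averaged 11.3 ± 0.524 CPM in NC, 11.3 ± 2.81 in OIM and 0.666 ± 0.187 with bFGF (SD, n = 3). MMP17, a membrane-anchored metalloproteinase, was at 4.02, 3.81 and 2.88 CPM in NC, 6.16, 5.28 and 4.46 CPM in OIM, and 0.615, 0.827 and 0.462 CPM with bFGF. The protease inhibitor A2ML1 kept 13.5% and CP, the copper ferroxidase ceruloplasmin, kept 17.8%.

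Receptors and channels were 6 of the 42, with 5.36% to 23.3% left. UTS2R, the receptor of the vasoconstrictor peptide urotensin II, was at 2.97, 3.99 and 3.60 CPM in NC, 9.10, 5.34 and 7.63 CPM in OIM, and 0.317, 0.442 and 0.115 CPM with bFGF. OIM was above NC in every library, and bFGF was below both. ADRA2A, an inhibitory adrenergic receptor, averaged 5.93 ± 1.0 CPM in NC, 6.91 ± 1.05 in OIM and 0.600 ± 0.208 with bFGF (SD, n = 3). KCNJ8, the pore of the vascular ATP-sensitive potassium channel, was at 2.07, 3.91 and 3.37 CPM in NC, 3.78, 3.16 and 4.29 CPM in OIM, and 0.653, 0.365 and 0.654 CPM with bFGF. CACNA1I, a T-type calcium channel, averaged 5.38 ± 0.272 CPM in NC, 4.07 ± 0.364 in OIM and 0.375 ± 0.0631 with bFGF (SD, n = 3). The interferon lambda receptor IFNLR1 kept 23.3% and the chloride channel family protein CLIC5 kept 17.8%.

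Intracellular signalling proteins were 9 of the 42, and they kept 8.45% to 20.2%. PPP2R2C, a regulatory subunit of protein phosphatase 2A, was at 3.96, 5.36 and 4.17 CPM in NC, 2.51, 2.56 and 2.28 CPM in OIM, and 0.541, 0.481 and 0.731 CPM with bFGF, so the 3 groups formed separate steps. RASL11A and RERG, both small GTPases related to Ras, kept 8.45% and 9.0%. GADD45G, a stress protein that acts on MAP kinase kinase kinases, was at 5.45, 3.63 and 3.33 CPM in NC, 6.09, 3.59 and 5.67 CPM in OIM, and 0.653, 0.654 and 0.943 CPM with bFGF. The others were the atypical MAP kinase MAPK4 (20.2% left), the MAP3K7 C-terminal-like gene MAP3K7CL (12.2%), the phosphatase 4 subunit PPP4R4 (14.5%), the inositol phosphatase INPP5J (15.5%) and the calcium-binding protein S100A1 (19.7%).

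Membrane, adhesion and vesicle proteins were 6 of the 42. TMEM255A, a transmembrane protein, was at 69.4, 70.7 and 69.8 CPM in NC, 41.5, 36.0 and 45.0 CPM in OIM, and 0.914, 0.769 and 0.731 CPM with bFGF, which left 1.45%. CADM4, an immunoglobulin-type cell adhesion molecule, averaged 10.3 ± 0.774 CPM in NC, 8.39 ± 0.564 in OIM and 0.469 ± 0.0236 with bFGF (SD, n = 3). The synaptic vesicle protein SV2B kept 5.71%, the phospholipid phosphatase-related PLPPR3 12.2%, the kinesin adaptor SYBU 19.4%, and the protocadherin PCDHB6 29.2%, the most of any member. PCDHB6 belongs to a cluster of closely similar genes, and the sharing of reads between them was not tested. Of the remaining 4, ANKRD37, a hypoxia-inducible ankyrin repeat protein, kept 5.14% and FAM46C, a poly(A) polymerase, kept 20.5%. C5H12orf75 kept 21.4% and LOC110256101 kept 11.9%.

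**Figure D2:**
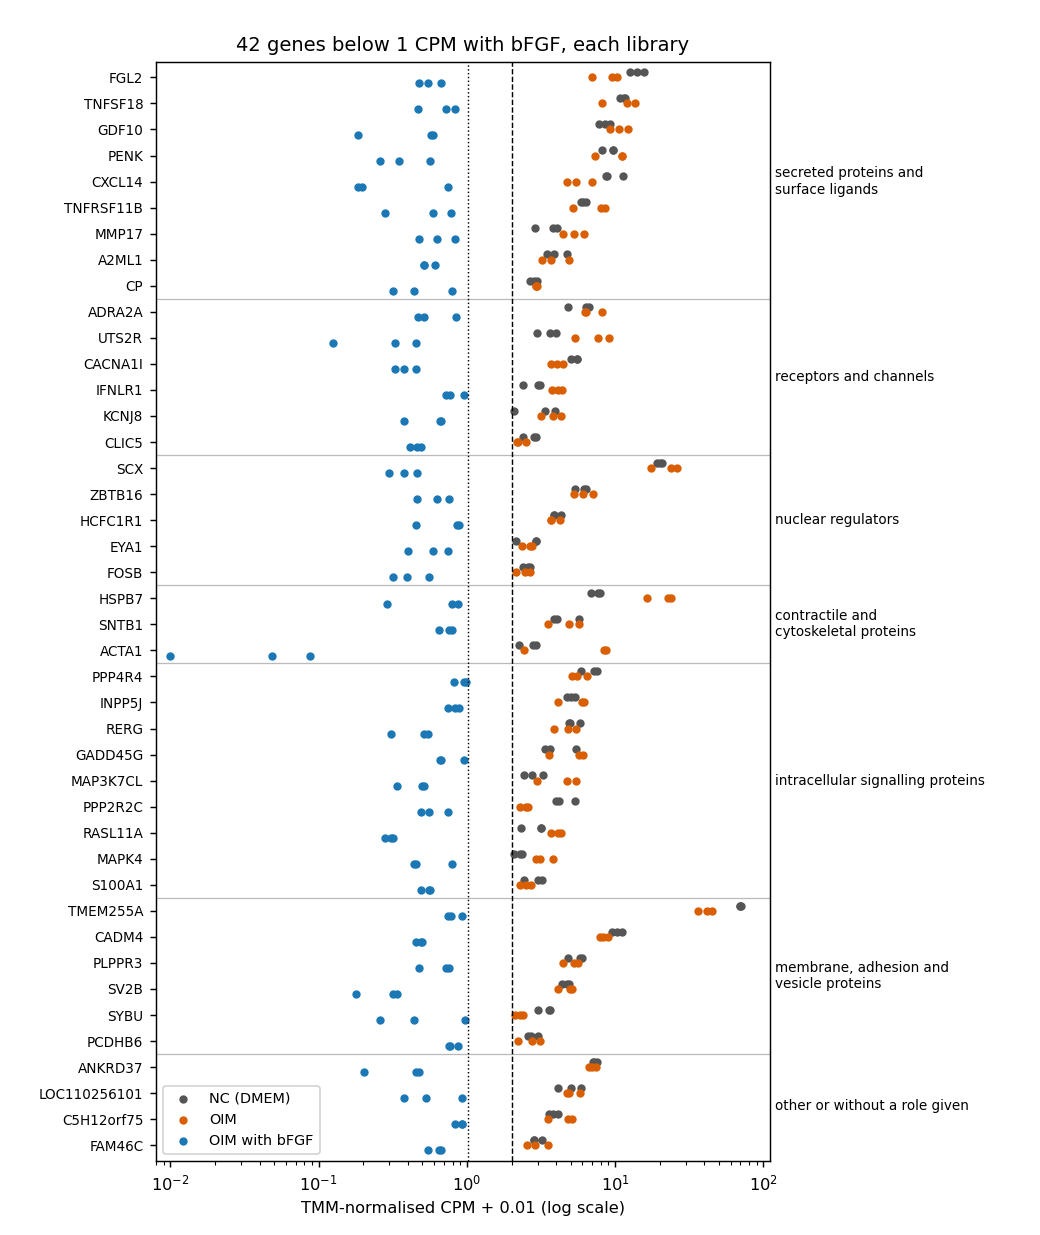
Points are the TMM-normalised CPM (plus 0.01, log scale) of the 42 genes in each of the 9 libraries, grouped by role and ordered by level within a role. No bFGF point (blue) reaches the dotted line at 1 CPM and no NC (grey) or OIM (orange) point falls below the dashed line at 2 CPM, and the orange points lie clear above the grey ones for HSPB7 and UTS2R and clear below them for TMEM255A and PPP2R2C.

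The rule set a floor on the NC and OIM libraries but did not use the difference between them, so that difference was tested for every member with edgeR's quasi-likelihood fit over all genes. OIM raised 4 of the 42 (HSPB7, ACTA1, UTS2R and MMP17) and lowered 4 (PPP2R2C, TMEM255A, CXCL14 and FGL2). Over all genes tested, 1.49% were called higher and 0.864% lower. Over the 10856 genes at 2 CPM or more in all 6 NC and OIM libraries, the level the rule asks for, these shares were 1.24% and 0.7%. The median log2 fold change of the members was 0.02, so the set as a whole had no single direction, while the median of its size was 0.24 against 0.089 for those 10856 genes. The members were lower in abundance, with a median of 4.65 CPM against 31.7 CPM, and the part of abundance in that contrast was not tested. OIM and NC libraries did not overlap for 13 members, 6 with OIM above and 7 with OIM below, where 28.8% of all genes tested did not overlap, so that count was near the background.

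HSPB7 had the largest rise, by a log2 fold change of 1.48 ± 0.16 (SE; adjusted p = 1.88e-06), with every OIM library above every NC library. UTS2R, also without overlap, rose by 1.06 ± 0.21 (adjusted p = 0.00162). ACTA1 rose by 1.27 ± 0.32 (adjusted p = 0.010), but OIM replicate 2 lay inside the NC range: without that library the log2 fold change was 1.67, and the call was lost without OIM replicate 1 (1.05), OIM replicate 3 (1.009) or NC replicate 2 (1.16), and with DESeq2 (1.29). MMP17 rose by 0.57 ± 0.18 (adjusted p = 0.0448), which was the weakest call. It was lost without any 1 of the 3 NC libraries (0.66, 0.62 and 0.44), OIM replicate 1 (0.45) or OIM replicate 2 (0.58).

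TMEM255A had the smallest error of the 4 that fell, with a log2 fold change of -0.78 ± 0.07 (SE; adjusted p = 1.05e-07). PPP2R2C changed by -0.88 ± 0.19 (adjusted p = 0.00299) and FGL2 by -0.65 ± 0.13 (adjusted p = 0.00195), both without overlap. The FGL2 change was -0.49 without OIM replicate 2, just short of the fold limit. CXCL14 changed by -0.75 ± 0.21 (adjusted p = 0.0187), a call lost without NC replicate 2 (-0.62), OIM replicate 1 (-0.72) or OIM replicate 3 (-0.63), and with DESeq2 (-0.75). TMEM255A, HSPB7, UTS2R and PPP2R2C kept their calls in all 12 alternative fits. OIM is the medium that bFGF was added to, so these 4 falls ran in the same direction as the bFGF falls and the 4 rises in the opposite one, and the comparisons share the OIM libraries.

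**Figure D3:**
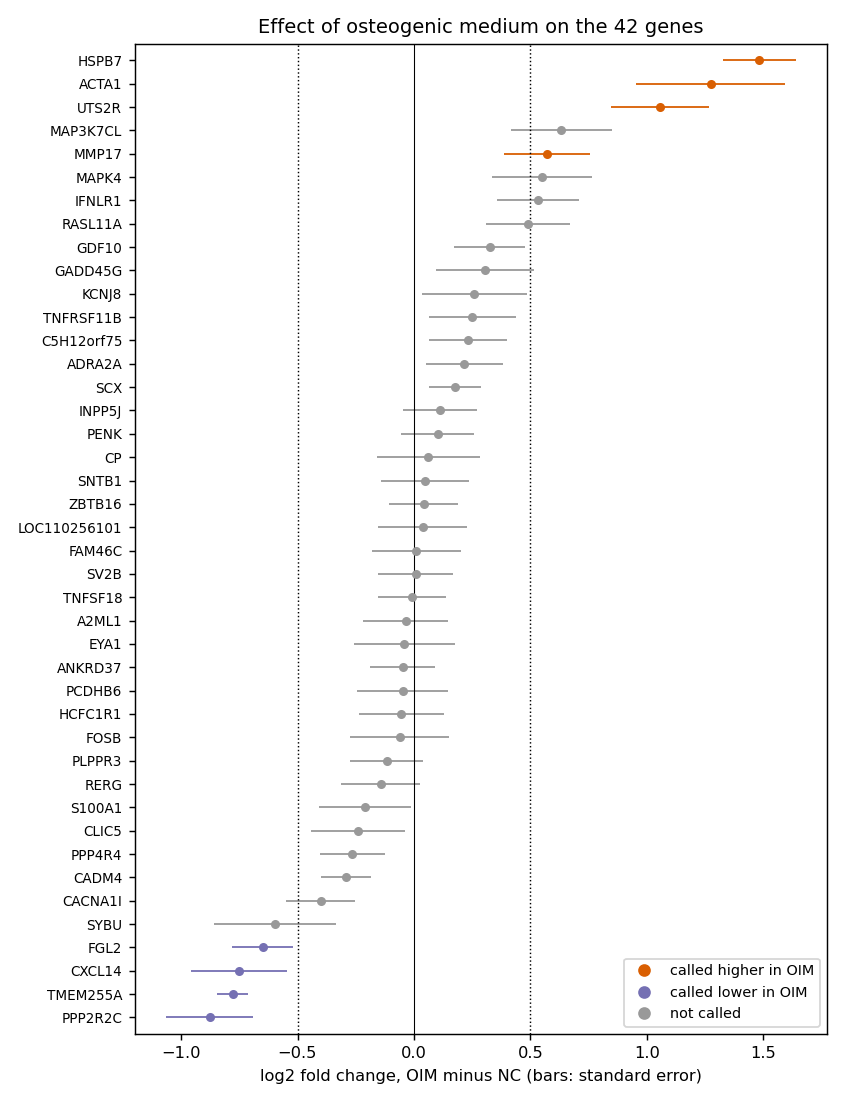
Points are the log2 fold change of OIM minus NC for each of the 42 genes, with bars of 1 standard error, and dotted lines mark the fold limit of 0.5 in either direction. The 4 genes called higher (orange) run from MMP17 at 0.57 to HSPB7 at 1.48, the 4 called lower (purple) from PPP2R2C at -0.88 to FGL2 at -0.65, and the 34 grey genes were not called.

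The other 34 members had log2 fold changes from -0.60 (SYBU) to 0.63 (MAP3K7CL) between OIM and NC. IFNLR1 came close to a call, at 0.53 ± 0.18 (SE; adjusted p = 0.0516) with every OIM library above every NC library. SCX (0.18 ± 0.11, adjusted p = 0.343), TNFRSF11B (0.25 ± 0.19, adjusted p = 0.439) and GDF10 (0.32 ± 0.15, adjusted p = 0.188) had no call, which does not show that they were equal in the 2 media.

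The 3 OIM libraries were not alike for these genes. OIM replicate 2 was the lowest of its group for 27 of 42 members (64.3%), against 35.8% of all genes tested, and its members' sum was 243 CPM against 303 and 309 CPM. The deviation was widest for ACTA1, at 2.43 CPM against 8.34 and 8.60. Smooth muscle genes outside the set showed the same library as lowest, in 18 of 22, and ACTA2 was at 6852 CPM in it against 9210 and 9286 CPM. In NC and BFGF no library was lowest for over 42.9% of the members. What set OIM replicate 2 apart was not tested, and the call counts without it were 4 higher and 3 lower.

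**Figure D4:**
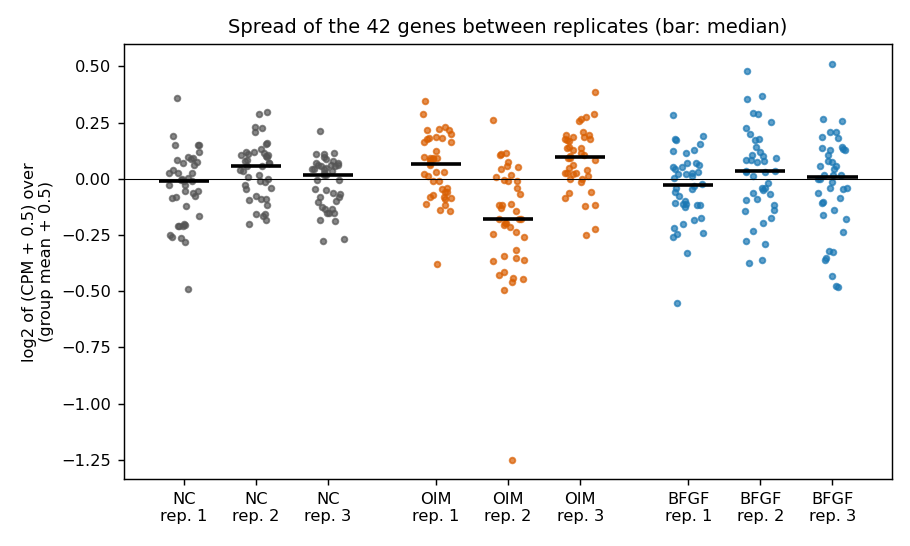
Each point is 1 of the 42 genes in 1 library, as the log2 ratio of its CPM plus 0.5 to its group mean plus 0.5, and black bars are medians over the 42. OIM replicate 2 has the lowest median (-0.18), and its lowest point is ACTA1, whereas the medians of the other 8 libraries lie between -0.03 and 0.10.

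Genes related to the members by family or partnership were compared next. They were listed after the members had been seen. Of the 90 tested, belonging to 31 members, bFGF lowered 44 (48.9%) and raised 15 (16.7%) relative to OIM, against 18.4% lower and 17.7% higher over all genes tested. With library totals in place of TMM these counts were 31 lower (34.4%) and 17 higher (18.9%), against 12.4% lower and 27.3% higher over all genes tested with that scaling.

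For several members the partners were lower too. KCNJ8 forms its channel with ABCC9, which averaged 7.88 ± 0.197 CPM in NC, 6.43 ± 1.02 in OIM and 1.90 ± 0.535 with bFGF (SD, n = 3; log2 fold change BFGF minus OIM -1.75 ± 0.17, adjusted p = 1.69e-08). CACNA1H, another T-type calcium channel, had 84.0 ± 15.3 CPM in OIM and 2.68 ± 0.743 with bFGF, a log2 change of -4.97 ± 0.14. CACNA1G, the remaining gene of that channel family, fell by 0.99 on the log2 scale. GADD45B, next to GADD45G in its family, had 41.6 ± 7.17 CPM in OIM and 3.08 ± 0.373 with bFGF. RASL11B, the paralogue of RASL11A, had 84.9 ± 7.59 CPM in OIM and 7.37 ± 0.942 with bFGF. The tested heat shock relatives of HSPB7 were all lower, with log2 changes of -1.05 for HSPB1, -0.67 for HSPB2, -2.39 for HSPB6, -1.62 for HSPB8 and -2.05 for CRYAB, although HSPB2 was not called with library totals.

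For other members some relatives rose or had no call. TNFSF11, which encodes RANKL, the ligand that osteoprotegerin binds, had 0 counts in all 6 NC and OIM libraries and averaged 0.386 ± 0.128 CPM with bFGF (SD, n = 3). Against a floor of 3 counts per library this is at least 7.56-fold higher. TNFSF11 passed the count filter only through its bFGF libraries, so its values are given without a test. TNFSF10, which encodes TRAIL, a further ligand of osteoprotegerin, had 52.1 ± 8.32 CPM in OIM and 2.14 ± 0.571 with bFGF. Beside FOSB, bFGF raised FOSL1 (log2 change 1.74 ± 0.11) and JUN (1.16 ± 0.06), and lowered FOSL2 (-0.69 ± 0.04, not called with library totals), while FOS (-0.27 ± 0.11), JUNB (-0.04 ± 0.05) and JUND (-0.35 ± 0.05) were not called. Of the actins, bFGF lowered ACTA2 (-3.52 ± 0.08) and ACTG2 (-5.50 ± 0.20) along with ACTA1. ACTG1 had -0.01 ± 0.03 (0.21 with library totals), ACTB -0.46 ± 0.04 (-0.23) and ACTC1 -1.57 ± 0.76 (-1.35). These were without a call under either scaling, and ACTB was short of the fold limit. Actin genes are alike in coding sequence, and the sharing of reads between ACTA1 and ACTA2 was not tested. Beside ADRA2A, bFGF lowered ADRA2C (-1.06 ± 0.30). Among the 5 tested relatives of GDF10, BMP2 rose (1.92 ± 0.15) and the other 4 were called lower: the activin subunit INHBA (-2.03 ± 0.06), GDF6 (-0.98 ± 0.06), BMP6 (-0.96 ± 0.18) and BMP4 (-0.65 ± 0.07), the last not with library totals.

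Longer lists of 16 pathways put the members in context. Of the 42, ACTA1, GDF10, ANKRD37 and ADRA2A are on these lists, and all counts leave the members out. bFGF lowered 202 and raised 73 of 389 list genes tested relative to OIM. Over all genes tested, 18.4% were called lower and 17.7% higher, or 12.4% and 27.3% with library totals. Among smooth muscle contractile genes 22 of 22 were lower, and 21 with library totals in place of TMM (median log2 change -2.32, against 0.00 over all genes tested), led by DES and MYH11. Among glycolysis and hypoxia-inducible genes, the company of ANKRD37, 24 of 28 were lower and none higher (median -1.42), led by NDUFA4L2 and BNIP3. TGF-beta and BMP genes, the company of GDF10, split into 17 lower and 8 higher of 31, led by BMP5 and TGFB1 among the higher and INHBB among the lower. Vasoactive and prostanoid receptors, the company of ADRA2A, split into 13 lower and 12 higher of 36. The list of FGF and ERK feedback genes also holds FGF receptors and transcription factors. That list ran the other way, with 14 of 27 higher and 4 lower (median 1.07). ETV5 and DUSP5 led the higher ones and the receptor gene FGFR2 the lower ones. Striated sarcomere genes, the list of ACTA1, had 2 lower and 1 higher of 9 tested.

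Most of the other lists also had more lower than higher genes, and axon guidance was the exception, under TMM and under library totals alike. There were 19 lower and 1 higher of 26 FOXO and insulin-restrained genes, 12 lower and 2 higher of 18 IGF system genes, 19 lower and 1 higher of 30 complement genes, and 11 lower and 4 higher of 19 proteoglycan genes. Elastic fibre genes had 11 lower and 3 higher of 22, Notch pathway genes 8 lower and 3 higher of 15, Wnt genes 14 lower and 7 higher of 31, and bone and cartilage genes 10 lower and 3 higher of 22. Eph receptors and ephrins had 7 lower and 3 higher of 19, and axon guidance genes 9 lower and 11 higher of 34.

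**Figure D5:**
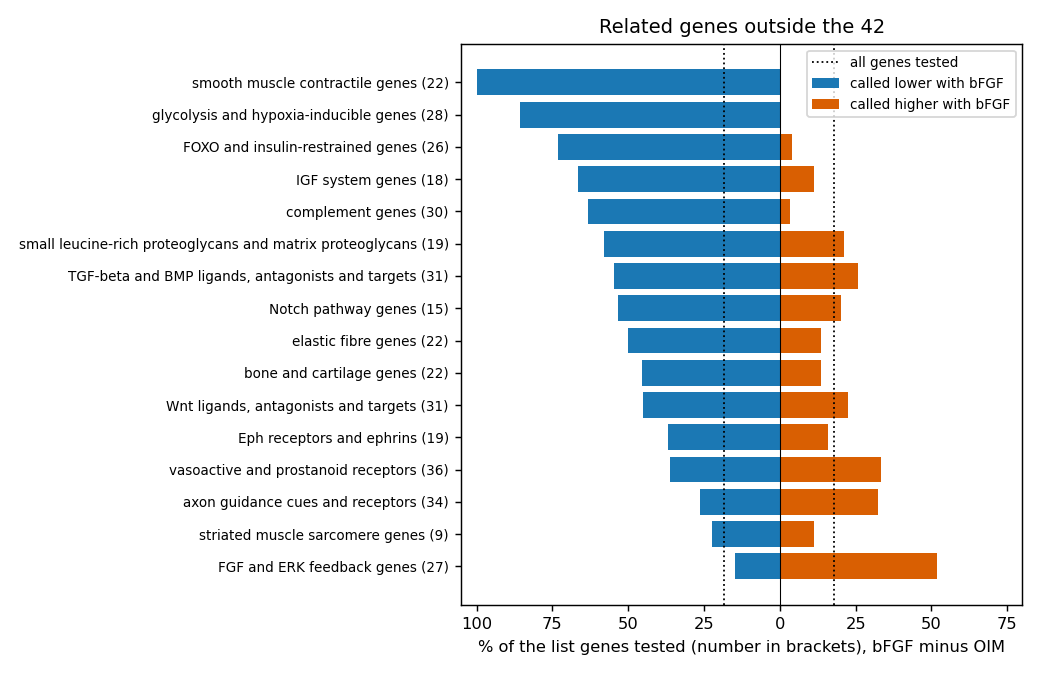
Bars give the percentage of each list's tested genes, without the 42 members, that were called lower (blue, to the left) or higher (orange, to the right) in BFGF than in OIM, with the number tested in brackets. Dotted lines mark the shares over all genes tested, 18.4% lower and 17.7% higher, and the smooth muscle list reaches 100% lower whereas the FGF and ERK feedback list is mostly on the right.

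Markers of the valve cells and of other cells were read in the same libraries, and few genes carried most of the sums. The 13 valve interstitial and fibroblast markers summed to 83010 to 93251 CPM in NC and OIM and to 51133 to 52174 CPM with bFGF. Collagens, FN1 and SPARC carried that fall, while VIM was at 5499 to 6332 CPM without and 8908 to 9069 CPM with bFGF, and POSTN at 528 to 651 and 1621 to 1680 CPM. The 9 pericyte and smooth muscle markers, which include the member KCNJ8, summed to 7300 to 10280 CPM and to 1111 to 1214 CPM. ACTA2 made up most of that sum, and the pericyte markers RGS5 (0.295 to 0.697, then 2.44 to 3.83 CPM) and CSPG4 (221 to 252, then 344 to 347 CPM) were higher with bFGF, whereas ABCC9 (5.43 to 8.02, then 1.46 to 2.498 CPM), NOTCH3 (45.4 to 84.2, then 7.08 to 10.4 CPM), KCNJ8, MYH11 and CNN1 were lower. The 12 endothelial markers summed to 74.8 to 91.9 CPM and to 172 to 182 CPM, most of it ERG (51.2 to 67.8, then 134 to 143 CPM), with PECAM1 (10.6 to 13.9, then 19.6 to 21.7 CPM), CDH5 (4.75 to 6.51, then 7.42 to 8.98 CPM), KDR and EMCN also higher in every bFGF library and VWF overlapping at 0.105 to 0.586 and 0.115 to 0.288 CPM. The 7 lymphatic markers summed to 83.3 to 103 CPM and to 31.1 to 36.0 CPM, most of it PDPN, with CCL21 and MMRN1 at 0 in every library.

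Leukocyte and heart markers were low. The 13 leukocyte markers summed to 16.1 to 19.9 CPM and to 10.6 to 11.8 CPM, most of it CD14, with CD3E at 0 in every library. The 9 cardiomyocyte markers in the table summed to 7.65 to 13.9 CPM and to 6.65 to 8.47 CPM. Of these, RYR2 was at 5.197 to 11.15 CPM without and 3.29 to 4.81 CPM with bFGF, TNNI3 at 1.29 to 2.44 and 2.42 to 3.21 CPM, and TNNT2, NPPA and NKX2-5 at 0 in every library. The 6 epithelial markers summed to at most 0.322 CPM. The part of these markers in the members' values was not tested.

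In the Sscrofa11.1 assembly the 42 genes lie on 15 chromosomes, with at most 8 on a chromosome (chromosome 4). SCX lies at chr4:500884-503276 and ACTA1 at chr14:60412651-60415687. TMEM255A lies at chrX:98412286-98464683 and TNFRSF11B at chr4:19850212-19879132. No member was the nearest tested neighbour of another. Of the 84 nearest neighbours on either side, 27 (32.1%) were called lower with bFGF and 21 (25%) called higher, relative to OIM, against 18.4% and 17.7% of all genes tested, and their median log2 fold change was -0.04.

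The values of 8 members could include reads of an overlapping gene on the opposite strand, since the sources used here do not state whether counting used strand. TMEM255A shares 1401 exonic bases with ZBTB33, which was at 41.2 CPM with bFGF, and PLPPR3 shares 485 with PTBP1, which was at 345 CPM. CP shares 372 exonic bases with HPS3, GDF10 257 with ZNF488, HCFC1R1 257 with THOC6, S100A1 200 with S100A13, TNFRSF11B 194 with COLEC10 and ANKRD37 167 with UFSP2. The part of such reads in what remained of these 8 with bFGF was not tested. SCX lies on the opposite strand inside BOP1 but shares no exonic base with it, and BOP1 was at 48.3 CPM in NC, 53.7 in OIM and 75.02 with bFGF, while SCX fell.

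Promoters, taken as 250 bases before to 50 after each annotated start, were read from Sscrofa11.1 (RefSeq annotation) for all 42 members and for 13611 genes tested. The members' median GC content was 65.0% against 61.7%, and the median observed over expected CpG ratio was 0.656 against 0.750. Across 10 motifs, each read on both strands, the largest difference in share was for the E-box CAGCTG, a kind of site that basic helix-loop-helix factors can bind. It was in 12 members (28.6%) and in 15.5% of all promoters. Of the 8 members called between OIM and NC, 4 hold it, and their windows are shown because these genes were called in that comparison, with the E-box in capitals (before the annotated start in UTS2R, PPP2R2C and FGL2 and after it in ACTA1) and each read 5′ to 3′ on the strand of the gene.

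ACTA1 (chr14:60412664-60412693, plus strand): ccctccggggggCAGCTGggccgggtcggg

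UTS2R (chr12:700785-700814, minus strand): gccgcgcattccCAGCTGgcggccaggcag

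PPP2R2C (chr8:4218122-4218151, plus strand): atgcctcaccttCAGCTGccgcgcccgccc

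FGL2 (chr9:102868990-102869019, plus strand): gactcaggcaggCAGCTGctgctcttaaaa

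The letters TATAAA of the TATA box were in 6 members (14.3%: HSPB7, TNFSF18, PENK, GADD45G, FAM46C and FOSB) and in 7.98% of all promoters. The match began 28 bases before the annotated start in FAM46C, near where a TATA box is usually found, 44 before it in GADD45G and 3 before it in HSPB7. It lay 158 before the start on the reverse strand in TNFSF18, after the start in PENK, and on both sides of it in FOSB. FAM46C is shown for that position and HSPB7 for its rise in OIM, with the letters in capitals.

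HSPB7 (chr6:75174904-75174933, minus strand): acggtcgggcctTATAAAgcaccgccggcc

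FAM46C (chr4:103154085-103154114, minus strand): gtggtcaggccaTATAAAaacggagggggc

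The TEAD site GGAATG was in 8 members (19.0%, against 11.06%), the AP-1 site TGACTCA in 3 (7.14%, against 2.87%), the SMAD element CAGACA in 6 (14.3%, against 13.3%), the E-box CACGTG in 4 (9.52%, against 9.17%) and the SP1 box GGGCGG in 27 (64.3%, against 61.1%). The CArG box, the FOXO site GTAAACA and the cAMP response element TGACGTCA were in 0 members, against 1.37%, 2.50% and 2.90% of all promoters. Neighbouring motifs can overlap, as the E-box and a reversed TEAD site nearly do in the UTS2R window. A match is a description of these windows, not of binding.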

How the data were processed

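Groups and replicate numbers came from the sample labels. The authors deposited a single table of counts that were not normalized, with whole numbers for 19535 genes and estimated counts (expected counts) for 9888 non-coding transcripts. It also held 6179 rows of circular RNAs, and 19 further columns without a name or value were not used. Per the labels, libraries were stranded, rRNA-depleted total RNA and the submitters' processing notes name Trimmomatic, HISAT2, StringTie and Sscrofa11.1, whereas the methods of the study name Cutadapt and STAR on the same build; the counting program and its strand setting are not given in the sources used here. Labels and methods also differ on the library kit and on the treatment time, and the labels' time was used.

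Gene counts were filtered by filterByExpr, scaled by TMM and fitted with edgeR 4.0.16 (R 4.3.3) over the 3 groups (6 residual degrees of freedom), with Benjamini-Hochberg adjustment over 13662 genes. A call needed an adjusted p of at most 0.05 and a log2 fold change of at least 0.5 in size, and a standard error is the log2 fold change over the root of F. The code was tested on simulated data. No pair of libraries agreed within sampling noise. Every member could be named by the naming rule; list genes outside the set were named as the 2 or 3 with the largest change, where named. Genes named at the limits, among relatives and for overlaps were chosen after their values were seen. The members, the lists and the relatives were chosen with earlier results of these data known. Alternatives were DESeq2 1.42.0, other size factors, other filters, fits on 2 groups, a replicate block, other limits and leaving out each library. Protein sequences were not used here. The result of 1 gene is not reported here.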

Additional observations from a re-analysis of the deposited data

How the results depend on the processing

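The rule gave 42 genes with median-of-ratios size factors, 33 with library totals alone, 43 without filterByExpr, 10 with a bFGF limit of 0.5 CPM and 12 with an NC and OIM floor of 5 CPM. Leaving out 1 library at a time gave 42 to 53 genes. Library totals moved the median bFGF minus OIM change of all genes to 0.22 on the log2 scale and the share of calls that were higher from 49.0% to 68.8%, and all 42 members were still called lower. Members called higher in OIM than NC were 2 to 4 with 1 library left out, with 2 without NC replicate 2 or without OIM replicate 1, and 4 to 6 otherwise. Those called lower were 3 to 5 throughout. DESeq2 lost ACTA1 and CXCL14 and added IFNLR1 and MAP3K7CL. The replicate numbers did not pair the libraries (no correlation of same-numbered deviations reached 0.1), and a replicate block gave 4 higher and 4 lower. List genes called lower with bFGF were 172 to 234, and those called higher 67 to 90. None of the called members changed sign between OIM and NC in the alternatives run. For bFGF minus OIM, library totals turned the sign of 6 of the 90 related genes, none of them called under either scaling, and of the medians of the Eph list (-0.11 to 0.11) and the axon guidance list (-0.08 to 0.14). With bFGF, 1 CPM is about 52 counts, and 37 of the 42 members had 10 or more counts in every bFGF library. ACTA1, with at most 4, had the fewest. A replicate number of 3 limited every test.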

Other observations

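ZBTB16 overlaps a non-coding transcript of LOC106504879 on the same strand, read here from the deposited estimated counts scaled like the genes. It was at 1.77, 1.6 and 3.51 CPM in NC, 1.39, 1.58 and 2.66 CPM in OIM, and 1.5, 2.15 and 1.82 CPM with bFGF, so its groups overlapped. For ZBTB16 itself, the rule fixed the gap between libraries with and without bFGF. A transcript of LOC110255434, also within ZBTB16 on that strand, was at 0 to 0.239 CPM in NC, 0.105 to 0.178 CPM in OIM and 0 with bFGF. Another transcript of LOC110255434 was at 0 in every library. Neither LOC106504879 nor LOC110255434 shares an exonic base with ZBTB16.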
